A study of Mus musculus with 5 samples.

Results

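A set of genes that maintain the blood-brain barrier (BBB) through Wnt and Norrin signalling were followed in tumor-bearing mouse brain. They are Ndp, Fzd4, Tspan12, Adgra2, Reck, Ctnnb1, Axin2, Apcdd1 and Sox17. They were chosen by symbol from knowledge of the pathway, with earlier results of these data known. The set makes up 9 of the 55573 genes in the count tables. All 9 had enough reads to be tested, among 23592 genes tested in all. RNA came from the right hemisphere of female C57BL/6 mice, which had received GL261 cells, a mouse glioma line carrying a luciferase and mKate2 vector, in the right caudate-putamen when 7 to 8 weeks old. The vehicle group (3 libraries) was given an antibody dilution buffer, and the UMBO group (2 libraries) underwent ultrasound-mediated BBB opening, in which low-intensity pulsed ultrasound makes injected microbubbles oscillate in the vessels. Both groups were treated on days 21 and 24 and sampled 24 h after the last session. Every mouse carried a tumor, so neither group is a normal brain, and whether vehicle mice had anaesthesia, microbubbles or a sham procedure for these libraries is not given in the sources used here. No other UMBO library was analysed here.

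Canonical Wnt signalling is needed for brain endothelium to form and keep its barrier. Wnt7a and Wnt7b from neural cells, with the co-receptors Reck and Adgra2 (also called Gpr124), and Norrin, the product of Ndp, with the co-receptor Tspan12, all act through Frizzled receptors and Lrp5 or Lrp6. Fzd4 is the receptor for Norrin. Both routes stabilize beta-catenin (Ctnnb1), which enters the nucleus, joins TCF and LEF factors and turns on barrier genes as well as feedback genes such as Axin2 and Apcdd1. Sox17 is a transcription factor of endothelium, in particular of arteries, that acts with this pathway. Loss of these signals in the adult makes brain and retinal vessels leaky.

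The total count was between 59736771 and 86164159 reads per library, each from 1 mouse, and no member had fewer than 294 reads in a library. The labels number the libraries within a group and name no litter or batch. UMBO replicate 2 stood apart from the other 4 libraries. Its 10 proliferation genes summed to 500.9 CPM (reads scaled to a common library size, here always after TMM), against 33.6 to 115 CPM in the others, and its 8 neuron markers summed to 2601 CPM, against 5241 to 8067 CPM. Where leaving out that library moved the fold change of a named gene by over 1.5 times on the log2 scale, the value without it is given too. In a bulk library, fewer cells of a type and less RNA per cell cannot be told apart.

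No difference between UMBO and vehicle larger than the spread between replicates was found in any of the 9 members. In edgeR's quasi-likelihood test over all genes, the adjusted p of the members lay between 0.497 and 0.942. Their unadjusted p lay between 0.137 and 0.884. The value 0.497 was the smallest adjusted p of any gene, and genes with unlike unadjusted p shared it. No member had an unadjusted p under 0.05, where 7.37% of all genes tested did. Over all 23592 genes, 0 passed an adjusted p of 0.05 in edgeR and 1738 had an unadjusted p under 0.05. The DESeq2 Wald test, run on 40435 genes without the filter on low counts, called 40 genes, none of them a member. Of the members, 4 had a positive and 5 a negative log2 fold change, with a median of -0.04 beside 0.01 over all genes. In no member did the UMBO libraries both lie above, or both below, the vehicle libraries, whereas 22.9% of all genes were separated in this way.

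The UMBO libraries lay far apart. UMBO replicate 1 was the highest of the 5 libraries for 5 members (Tspan12, Adgra2, Ctnnb1, Apcdd1 and Sox17), a position it held in 8.99% of all genes. UMBO replicate 2 was the lowest of the 5 for 7 members, all but Adgra2 and Apcdd1, as it was in 39.8% of all genes. For Tspan12, Ctnnb1 and Sox17 the 3 vehicle libraries all lay between the UMBO libraries in this order, which held in 4.37% of all genes. UMBO replicate 1 exceeded UMBO replicate 2 in every member, by 1.16-fold (Adgra2) to 1.86-fold (Fzd4), where 50.1% of all genes had that order. On the log2 scale, the members' median difference from the vehicle level was 0.25 for the first UMBO library and -0.39 for the second, and other lists split alike, with 0.26 and -0.365 for the astrocyte markers, 0.20 and -0.29 for the mural markers and 0.13 and -0.26 for the Wnt receptors. These positions describe single libraries and carry no test of the treatment.

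**Figure D1:**
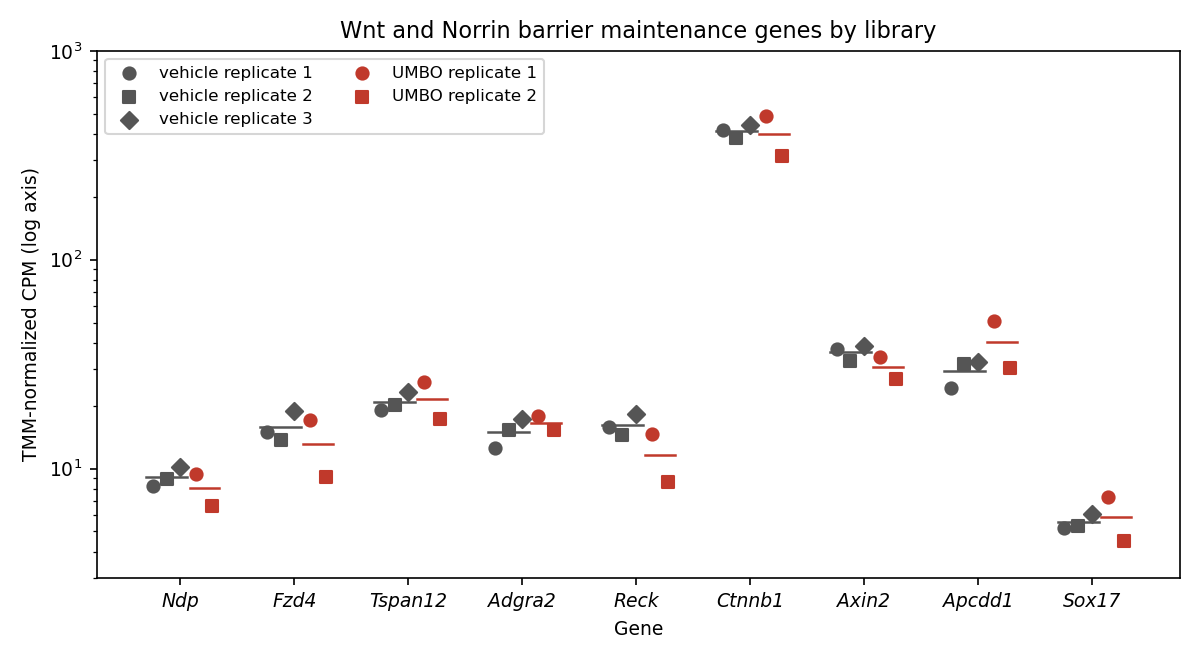
TMM-normalized CPM of each member (log axis) in the 3 vehicle libraries (gray) and the 2 UMBO libraries (red), with short lines at the group means. UMBO replicate 2 (red square) is the lowest library for 7 genes and UMBO replicate 1 (red circle) the highest for 5.

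The Norrin branch comprises a ligand, a receptor and a co-receptor. Ndp (ENSMUSG00000040138, chromosome X of GRCm38, 16885521 to 16911774, reverse strand) encodes Norrin, which astrocytes secrete in the brain. It was at 8.24, 8.95 and 10.1 CPM in vehicle replicates 1 to 3 and at 9.44 and 6.64 CPM in UMBO replicates 1 and 2. One UMBO library thus lay inside the vehicle range and the other below it. The means were 9.10 ± 0.95 CPM (SD, n = 3) with vehicle and 8.04 ± 1.98 CPM (SD, n = 2) with UMBO, which is -0.18 as a log2 fold change (standard error 0.253) with an adjusted p from edgeR of 0.706.

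Fzd4 (ENSMUSG00000049791, chromosome 7, 89404355 to 89413134, forward strand) encodes the Frizzled receptor that binds Norrin as well as Wnt proteins. Its level was 14.9, 13.7 and 18.9 CPM in the vehicle libraries, 17.1 CPM in UMBO replicate 1 and 9.16 CPM in UMBO replicate 2. The latter was 0.579 times the vehicle mean, while the former was within the vehicle range. The log2 fold change was -0.27 (standard error 0.319), with a 95% interval of the fold change from 0.482 to 1.42. Tspan12 (ENSMUSG00000029669, chromosome 6, 21771395 to 21852515, reverse strand) encodes the tetraspanin that lets Fzd4 respond to Norrin. It was at 19.2, 20.1 and 23.3 CPM in the vehicle libraries and at 25.8 and 17.2 CPM in the UMBO libraries, one above and one below all of the vehicle values. Its log2 fold change was 0.05 (standard error 0.233), with a 95% interval of the fold change from 0.695 to 1.53.

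The Wnt7 branch uses a pair of endothelial surface proteins. Adgra2 (ENSMUSG00000031486, chromosome 8, 27085583 to 27123436, forward strand) encodes the adhesion G protein-coupled receptor Gpr124. It was the steadiest member, at 12.6, 15.3 and 17.2 CPM with vehicle and 17.8 and 15.3 CPM with UMBO, and the UMBO values lay in the upper part of the vehicle range or just above it. The log2 fold change was 0.14 (standard error 0.213), and the highest library exceeded the lowest by 1.41-fold. Reck (ENSMUSG00000028476, chromosome 4, 43875530 to 43944806, forward strand) encodes a membrane-anchored protein that binds Wnt7 and also restrains matrix metalloproteinases. It was at 15.8, 14.4 and 18.3 CPM with vehicle, at 14.6 CPM in UMBO replicate 1 and at 8.60 CPM in UMBO replicate 2. Reck thus had its lowest level, 0.532 times the vehicle mean, in the UMBO library that stood apart and a level inside the vehicle range in the other. It had the most negative log2 fold change of the 9, -0.48 (standard error 0.283, adjusted p from edgeR = 0.497).

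The partners of these co-receptors gave a mixed picture. Wnt7a was at 10.9, 12.5 and 12.8 CPM with vehicle and 11.9 and 10.1 CPM with UMBO (log2 fold change -0.13, or -0.01 without UMBO replicate 2). Wnt7b was at 28.1, 30.6 and 30.2 CPM with vehicle and 52.7 and 35.4 CPM with UMBO, above every vehicle library in both. Its log2 fold change of 0.57 (standard error 0.21) had an unadjusted p of 0.0343 and an adjusted p of 0.497 in edgeR, and UMBO replicate 1 carried much of it, since the log2 fold change was 0.23 without that library and 0.83 without UMBO replicate 2. For the receptor genes the log2 fold change was 0.23 in Lrp5 (standard error 0.22, adjusted p from edgeR = 0.583) and -0.14 in Lrp6 (standard error 0.193, adjusted p from edgeR = 0.688, and -0.03 without UMBO replicate 2).

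Ctnnb1 (ENSMUSG00000006932, chromosome 9, 120929216 to 120960507, forward strand) encodes beta-catenin, which also links cadherins to the cytoskeleton in most cells, so its RNA is not a measure of signalling. It was at 417, 381 and 440 CPM with vehicle and at 489 and 314 CPM with UMBO, again on either side of all vehicle libraries. The log2 fold change was -0.04 (standard error 0.267), with a 95% interval of the fold change from 0.618 to 1.53. Ulk4, on the opposite strand, shares 759 bases (14.6%) of the exonic length of Ctnnb1, but it was counted at 427 to 779 reads per library against 20560 to 41755 for Ctnnb1.

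Axin2 and Apcdd1 are both induced by beta-catenin and both damp the pathway, Axin2 in the complex that destroys beta-catenin and Apcdd1 at the cell surface. They pointed in opposite directions. Axin2 (ENSMUSG00000000142, chromosome 11, 108920349 to 108950783, forward strand) was at 37.4, 32.8 and 38.5 CPM with vehicle and at 34.4 and 26.9 CPM with UMBO. One UMBO library lay within the vehicle range and the other below it. The log2 fold change was -0.24 (standard error 0.186), with a 95% interval of the fold change from 0.617 to 1.16. Apcdd1 (ENSMUSG00000071847, chromosome 18, 62922231 to 62961179, forward strand) was at 24.3, 31.6 and 32.4 CPM with vehicle, at 50.9 CPM in UMBO replicate 1 and at 30.2 CPM in UMBO replicate 2. Only UMBO replicate 1, at 1.73 times the vehicle mean, lay outside the vehicle range. Apcdd1 had the most positive log2 fold change of the 9, 0.46 (standard error 0.27, adjusted p from edgeR = 0.497), and a 95% interval of the fold change from 0.872 to 2.18.

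Sox17 (ENSMUSG00000025902, chromosome 1, 4490931 to 4497354, reverse strand) was the least abundant member. It was at 5.19, 5.33 and 6.07 CPM with vehicle and at 7.30 and 4.49 CPM with UMBO, from 294 to 624 reads per library, so the UMBO values again enclosed those of the vehicle group. Its log2 fold change was 0.09 (standard error 0.296). The 8 arterial markers, a group that Sox17 is known to accompany, summed to between 114 and 126 CPM with vehicle, 121 CPM in UMBO replicate 1 and 86.8 CPM in UMBO replicate 2. Most of that sum is Efnb2 and Hey1, which other brain cells express too. On the log2 scale, the median difference of the 8 markers from the vehicle level was 0.02 in UMBO replicate 1 and -0.02 in UMBO replicate 2. Both UMBO libraries lay above the vehicle group in 2 of the 8 (Gja4 and Sema3g) and below it in 0, beside 11.5% and 11.4% of all genes. Sox17 shares 804 bases of its exons with Gm37587 on the opposite strand, a transcript counted at 0 to 5 reads per library. Axin2, Tspan12 and Adgra2 share 209, 98 and 73 exonic bases with genes on the opposite strand. The counting is not stated to use strand, so reads in these shared bases cannot be assigned.

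**Figure D2:**
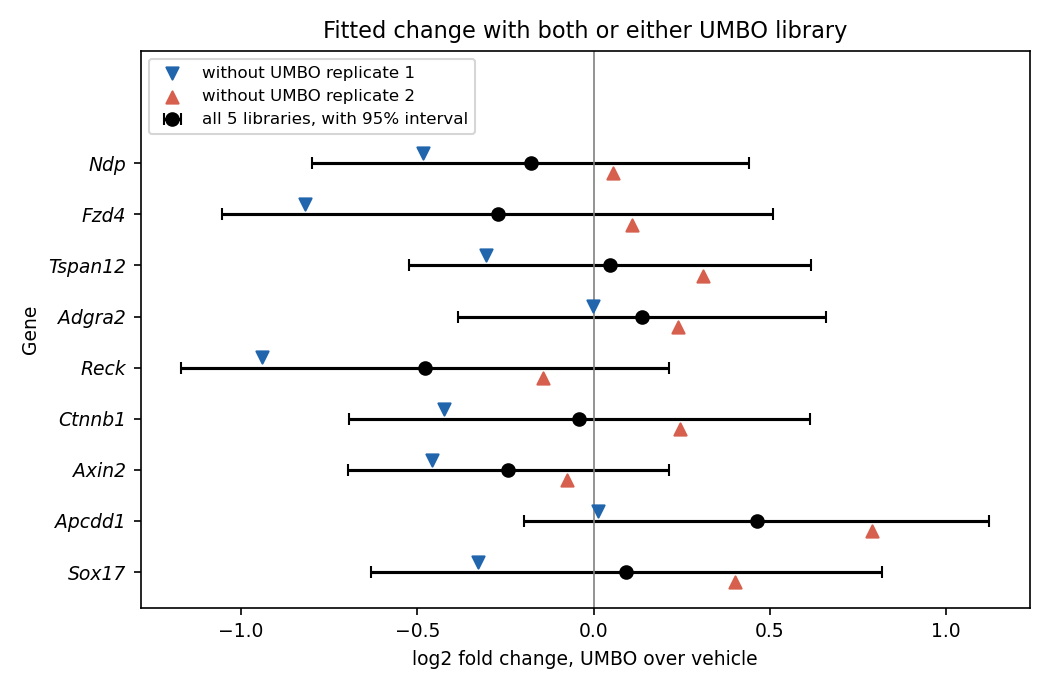
Log2 fold change of each member, UMBO over vehicle, from the fit of all 5 libraries (black circles, bars are 95% intervals) and from fits without UMBO replicate 1 (blue triangles) or without UMBO replicate 2 (red triangles). Every interval of the 5-library fit includes 0, and for each gene the fit without UMBO replicate 1 lies to the left of the fit without UMBO replicate 2.

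The direction of most members depended on which UMBO library was used. Without UMBO replicate 2, 7 members had a positive log2 fold change and the median was 0.24. Without UMBO replicate 1, 8 members had a negative one and the median was -0.42. Ndp, Fzd4 and Ctnnb1 turned positive without UMBO replicate 2, at 0.05, 0.11 and 0.25, and Tspan12, Adgra2 and Sox17 turned negative without UMBO replicate 1, at -0.31, -0.0022 and -0.33. Tspan12, Adgra2 and Sox17 were at 0.31, 0.24 and 0.40 without UMBO replicate 2. Reck and Axin2 stayed negative in both fits, at -0.14 and -0.07 without UMBO replicate 2, and Apcdd1 stayed positive, at 0.01 without UMBO replicate 1 and 0.79 without UMBO replicate 2. With 1 UMBO library in the fit, which is then assumed to vary like the vehicle libraries, a few members had an unadjusted p under 0.05 in edgeR. These were Fzd4 and Reck without UMBO replicate 1 (log2 fold changes of -0.82 and -0.94), both lower with UMBO, where 19.6% of all genes were called in that direction. Without UMBO replicate 2 it was Apcdd1, higher with UMBO, where 1.15% of all genes were called in that direction. The adjusted p from edgeR in these fits was 0.0814 for Fzd4, 0.0524 for Reck and 1.00 for Apcdd1.

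Per length of exon, the members spanned a wide range of levels. In the vehicle libraries Ctnnb1 was far above the rest, at 79.5 ± 5.77 CPM per kilobase (SD, n = 3). Axin2 (6.58 ± 0.55) and Tspan12 (6.29 ± 0.655) followed and overlapped each other, then Ndp (4.69 ± 0.491) and Reck (3.38 ± 0.41), which did not overlap their neighbors in this order. Adgra2 (2.60 ± 0.401), Fzd4 (2.36 ± 0.404) and Apcdd1 (2.28 ± 0.343) could not be ordered within their spread, and Sox17 (1.16 ± 0.0995) was the lowest.

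RefSeq promoter sequences of Ndp, Fzd4, Tspan12, Reck, Ctnnb1 and Axin2, 6 of the 9 members, were used. Each ran from 250 bases before to 50 after a start site (GRCm38.p6). They were searched on both strands for the TCF/LEF letters ATCAAAG, present in 3.73% of all 32851 promoters, and for the SOX letters ACAAAG, present in 18.71%. None of the 6 held the TCF/LEF letters in this window, and 3 (Ndp, Tspan12 and Reck) held the SOX letters. Only these exact letters were searched, so other forms of either motif would not have been found. Both sets of letters end in CAAAG, so a hit on the SOX letters does not tell a SOX site from another form of a TCF/LEF site. The promoters of Adgra2, Sox17 and the feedback target Apcdd1 were not among those read, so whether they hold either set of letters is not reported here. Shown is the promoter of Axin2, the usual readout of the pathway, which held neither set of letters. Also shown are those of Ndp and Tspan12, a ligand and co-receptor of the Norrin branch, whose SOX letters are in capitals. Axin2 lies at chr11:108920099-108920398 on the forward strand, Ndp at chrX:16911725-16912024 and Tspan12 at chr6:21852484-21852783, both on the reverse strand.
Axin2: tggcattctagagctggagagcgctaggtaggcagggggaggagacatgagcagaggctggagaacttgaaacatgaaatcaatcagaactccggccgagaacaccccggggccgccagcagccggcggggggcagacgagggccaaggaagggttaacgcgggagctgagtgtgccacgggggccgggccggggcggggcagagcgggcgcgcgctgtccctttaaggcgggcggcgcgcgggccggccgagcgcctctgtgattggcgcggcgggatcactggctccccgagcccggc
Ndp: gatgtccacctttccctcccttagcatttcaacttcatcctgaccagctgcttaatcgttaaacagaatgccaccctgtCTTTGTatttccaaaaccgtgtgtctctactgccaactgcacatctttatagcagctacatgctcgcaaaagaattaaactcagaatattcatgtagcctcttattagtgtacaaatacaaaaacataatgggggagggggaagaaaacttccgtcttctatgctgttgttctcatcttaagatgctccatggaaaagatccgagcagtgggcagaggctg
Tspan12: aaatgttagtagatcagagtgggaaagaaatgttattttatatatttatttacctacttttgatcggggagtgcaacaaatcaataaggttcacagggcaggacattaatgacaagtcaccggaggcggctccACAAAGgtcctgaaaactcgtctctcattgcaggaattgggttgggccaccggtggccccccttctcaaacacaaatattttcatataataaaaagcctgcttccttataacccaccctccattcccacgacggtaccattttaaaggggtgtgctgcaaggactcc
The Axin2 window is 70.0% G and C with 31 CG steps, while those of Ndp and Tspan12 are 43.0% and 44.0% with 5 and 7 CG steps. These letters describe the windows only, and no binding was measured.

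The rest of the canonical pathway was read from lists of 90 ligands, receptors, inhibitors, transducers, nuclear factors and feedback targets, of which 85 could be tested. At an unadjusted p under 0.05, 4 were higher and 5 lower with UMBO, beside 5.3% and 2.06% of all genes, and 0 passed the adjusted threshold in edgeR or in the DESeq2 Wald test. This count depended on single libraries, as did the count over all genes. Leaving out a vehicle library gave 2 genes (replicate 1), 7 (replicate 2) or 3 (replicate 3) of the 85. Over all genes, the same fits gave 296 of 23137, 2674 of 23120 and 432 of 22953. UMBO replicate 2 was the lowest library for 46 of the 85 genes, beside 39.8% of all genes. The median log2 fold change of the 85 was -0.12.

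Of 15 secreted inhibitors, 13 were tested. At an unadjusted p under 0.05, 3 were lower with UMBO and none higher, beside 2.06% and 5.3% of all genes. Frzb, a decoy receptor for Wnt proteins, was at 17.1, 16.3 and 14.9 CPM with vehicle and 9.46 and 3.45 CPM with UMBO (log2 fold change -1.31, standard error 0.437). Sfrp1, of the same family, was at 13.2, 12.5 and 14.8 CPM with vehicle and 8.98 and 7.36 CPM with UMBO (log2 fold change -0.72, standard error 0.213). Sost, which blocks Lrp5 and Lrp6, rested on 5 to 19 reads per library, at 0.224 to 0.237 CPM with vehicle and 0.0702 and 0.0763 CPM with UMBO. All 3, named for the smallest p of the list, had both UMBO libraries below every vehicle library and an adjusted p of 0.497 in edgeR. Of the 13 tested, 4 lay wholly below the vehicle group and 1 wholly above, beside 11.4% and 11.5% of all genes. Frzb had a log2 fold change of -0.76 without UMBO replicate 2 and -2.25 without UMBO replicate 1.

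Of 23 ligands and R-spondins, 20 were tested. At an unadjusted p under 0.05, Wnt9a (log2 fold change -1.08) and Rspo1 (-0.68) were lower and Wnt7b higher. Of all genes, 2.06% were lower and 5.3% higher at that p. Without UMBO replicate 2 the values were -0.76 for Wnt9a and -0.75 for Rspo1. Of 17 other receptors, the atypical Wnt receptor Ryk was higher (log2 fold change 0.57, standard error 0.226), while Fzd3 (-0.77) and Lgr5 (-0.65) had the next smallest p. Much of this rested on UMBO replicate 2, without which Ryk was at 0.23, Fzd3 at -0.26 and Lgr5 at -0.45. None of 13 genes of the destruction complex and its regulators passed, with Btrc (-0.52), Apc2 (-0.66) and Gsk3b (-0.54) at the smallest p. Of the 13 log2 fold changes 12 were negative, beside 49.1% of all genes, and so were those of all 8 neuron markers, whose median was -0.41. The part of neuronal RNA in this was not tested. Without UMBO replicate 2, Btrc was at -0.24, Apc2 at -0.22 and Gsk3b at -0.24. None of 12 nuclear factors passed, with Tcf7l1 (0.65), Tle2 (-0.44) and Bcl9l (-0.31) at the smallest p, and at 0.35, -0.28 and -0.14 in that order without UMBO replicate 2. Lef1, itself a target of the pathway, was at 14.9, 16.1 and 15.8 CPM with vehicle and 16.8 and 11.0 CPM with UMBO, the same split between UMBO libraries as in the members.

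Ccnd1 and Myc, 2 of 10 feedback targets, were higher with UMBO at an unadjusted p under 0.05, where 5.3% of all genes were. The log2 fold change was 1.50 for Ccnd1 (standard error 0.571) and 1.88 for Myc (standard error 0.744), each with an adjusted p of 0.497 in edgeR. Both genes drive cell division and are under many other controls. Their levels moved with the proliferation genes: Myc was at 7.09, 15.1 and 4.65 CPM with vehicle, 11.2 CPM in UMBO replicate 1 and 54.5 CPM in UMBO replicate 2. The proliferation genes summed to 48.3, 112, 33.6, 115 and 500.9 CPM in the same libraries, and their part in the result was not tested. Leaving out UMBO replicate 2 gave 0.37 for Ccnd1 and 0.33 for Myc on the log2 scale. Sp5, a more specific target, was at no more than 0.809 CPM and its log2 fold change was 1.06 (standard error 0.474), or 0.68 without UMBO replicate 2.

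Another list held 15 genes tied to the pathway in barrier endothelium, among them Plvap, a gene of leaky vessels that the pathway is known to repress. Of these, 3 were higher with UMBO at an unadjusted p under 0.05 and none lower, beside 5.3% and 2.06% of all genes. The tight junction gene Cldn5 was at 15.8, 29.4 and 19.6 CPM with vehicle and 38.9 and 57.1 CPM with UMBO (log2 fold change 1.15, standard error 0.315). The amino acid transporter gene Slc7a5 was at 51.3, 74.3 and 57.7 CPM with vehicle and 91.1 and 135 CPM with UMBO (log2 fold change 0.89, standard error 0.255, and 0.58 without UMBO replicate 2). For the efflux pump gene Abcg2 the log2 fold change was 0.54 (standard error 0.186). These 3 were named for the smallest p of the list, which favors groups that do not overlap. In all 3 each UMBO library exceeded the whole vehicle group. Of all 15, 6 lay wholly above the vehicle group and 1 wholly below, beside 11.5% and 11.4% of all genes. None of the 3 named genes passed the adjusted threshold (adjusted p = 0.497 each in edgeR). Cldn5 and Slc7a5 did pass it with the replicate block (adjusted p from edgeR = 0.00232 and 0.014), as did 2337 of all 23592 genes. The log2 fold change of Cldn5 was 1.38 without UMBO replicate 1 and 0.85 without UMBO replicate 2. That of Slc7a5 was 1.12 without UMBO replicate 1. Plvap was at 7.38, 10.7 and 7.39 CPM with vehicle and 7.16 and 11.1 CPM with UMBO. Whether these genes differ from the members in their response was not tested.

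**Figure D3:**
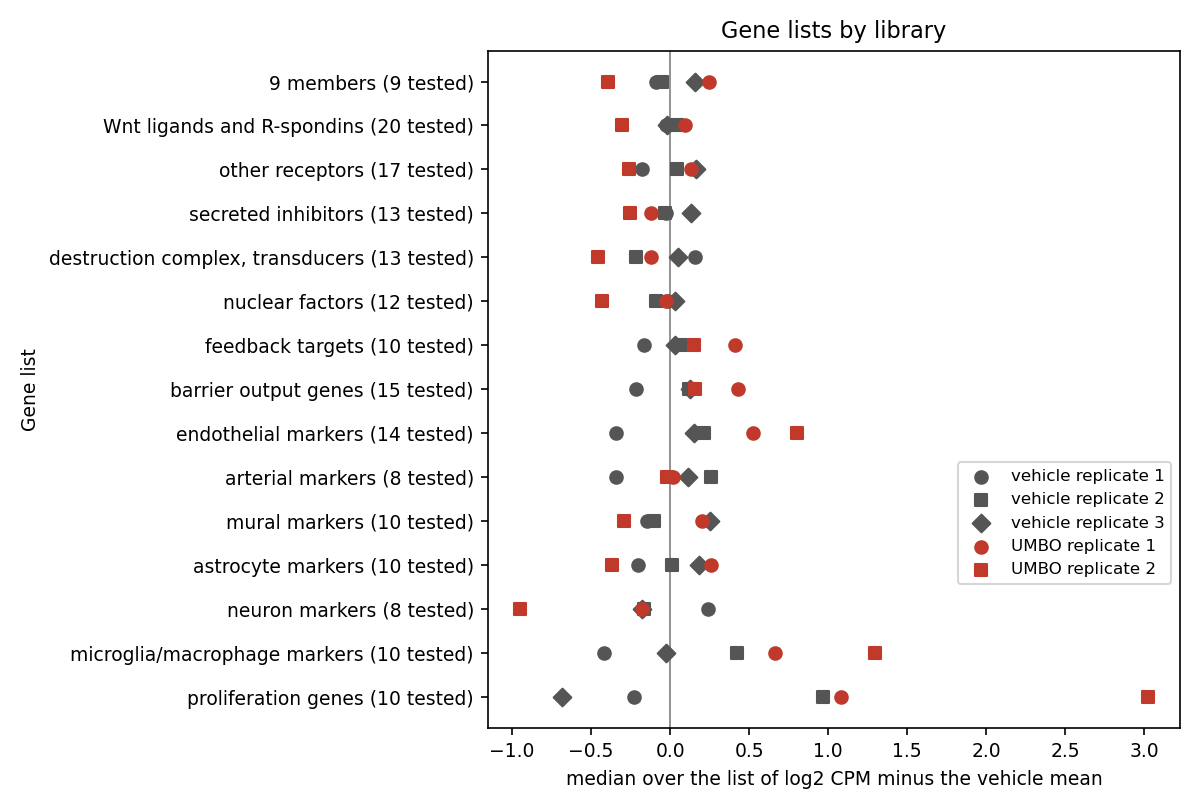
Median over the tested genes of each list of the log2 CPM minus the vehicle mean, for the 3 vehicle libraries (gray) and the 2 UMBO libraries (red). The members have UMBO replicate 2 at -0.39 and UMBO replicate 1 at 0.25, whereas the endothelial markers have both UMBO libraries, at 0.53 and 0.80, above every vehicle library.

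The amount of vessel RNA in the hemisphere bears on genes that endothelium expresses. The 14 endothelial markers were all detected, and their CPM summed to 184 to 274 with vehicle and to 316 and 415 with UMBO. All 14 log2 fold changes were positive, from 0.12 to 1.39, with a median of 0.63. Of the 14, 7 were higher at an unadjusted p under 0.05, beside 5.3% of all genes, none lower and none past the adjusted threshold. Pecam1 was at 15.8, 24.9 and 21.5 CPM with vehicle and 29.9 and 45.0 CPM with UMBO, and Cdh5 at 11.9, 15.9 and 16.7 CPM with vehicle and 21.8 and 22.7 CPM with UMBO. The log2 fold change of Pecam1 was 0.85, or 0.53 without UMBO replicate 2, and that of Cdh5 was 0.58, or 0.55. Pecam1 and Cdh5 passed the adjusted threshold with the replicate block (adjusted p from edgeR = 0.00938 and 0.0483), as did 2337 of all 23592 genes. Without UMBO replicate 1 the log2 fold change was 1.09 for Pecam1 and 0.58 for Cdh5. Summed markers of some other cells were also higher in both UMBO libraries. The 6 fibroblast and meningeal markers summed to 81.2 to 126 CPM with vehicle and 202 and 239 CPM with UMBO. Of the 6, 4 were higher at an unadjusted p under 0.05, beside 5.3% of all genes. The 5 red blood cell genes summed to 71.8 to 165 CPM with vehicle and 181 and 217 CPM with UMBO, and the 10 microglia and macrophage markers to 438 to 813 CPM with vehicle and 936 and 1529 CPM with UMBO. Both UMBO libraries lay above the vehicle group in 5 of 6, 3 of 5 and 6 of 10 genes of these lists. That held in 11.5% of all genes, and P2ry12 of the microglia list was lowest in UMBO replicate 2, at 20.8 CPM. In UMBO replicate 2 alone, the 10 astrocyte markers summed to 2363 CPM against 3830 to 5262 CPM in the other libraries. Slc1a2 was the largest part of this sum, at 765 CPM against 1798 to 2887 CPM, while Aldh1l1 was highest in UMBO replicate 2, at 89.1 CPM. The 10 mural markers of that library, at 236 CPM, lay inside the range of the others (230 to 330 CPM). The part of these shifts in the levels of the members was not tested.

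Each member was therefore also expressed relative to the mean log2 CPM of the 14 endothelial markers in the same library. All 9 differences between UMBO and vehicle were then negative, with a median of -0.70, but the median of all other genes was -0.61 because the reference itself was higher with UMBO. None of the 9 had both UMBO libraries above the vehicle libraries on this scale (1.45% of all genes). Ndp, Adgra2, Reck and Axin2 had both UMBO libraries below every vehicle library, which held for 50.8% of all genes and is therefore not a result about these members. Reck showed the largest difference, from 0.59, -0.11 and 0.33 in the vehicle libraries to -0.34 and -1.41 in the UMBO libraries, a difference of -1.14 (2-sided exact permutation test, p = 0.1, the smallest that 3 against 2 libraries allow). Sox17 differed by -0.57 (exact permutation p = 0.3) and Fzd4 by -0.95 (exact permutation p = 0.3). Apcdd1 differed least, by -0.20 (exact permutation p = 0.8), and by 0.33 without UMBO replicate 2. Leaving out that library brought Reck to -0.61, Fzd4 to -0.35, Sox17 to -0.069 and the remaining 5 members to between -0.54 and -0.16. No p could reach 0.05 in any of these 9 comparisons. In bulk RNA the ratio is not a level per endothelial cell for any member. Ctnnb1 and Ndp, for example, are expressed by other cells too.

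**Figure D4:**
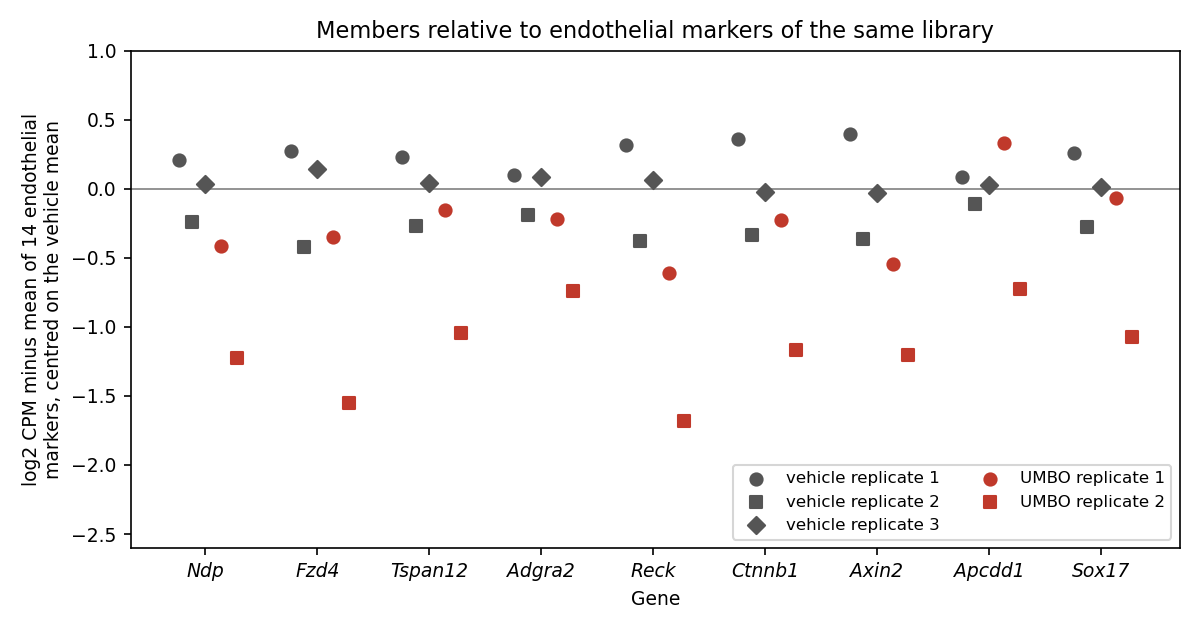
Log2 CPM of each member minus the mean log2 CPM of 14 endothelial markers of the same library, centred on the vehicle mean, for 3 vehicle libraries (gray) and 2 UMBO libraries (red). UMBO replicate 2 is the lowest point of every gene, and UMBO replicate 1 lies above it throughout and above all vehicle points in Apcdd1 alone.

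The members were also compared in the shape of their profile over the 5 libraries, as the root mean square difference of log2 CPM after centring each gene on its own mean. Among the members Tspan12 and Sox17 were the closest pair, at 0.043, and Apcdd1 was the farthest from any other member, at 0.212 from Sox17. Among 213 genes of the fixed lists, the nearest were Nkd1 for Ndp (0.030), Wnt5a for Fzd4 (0.051), Fzd8 for Tspan12 (0.063), Flt1 for Adgra2 (0.038), Pygo1 for Reck (0.066), Tnfrsf19 for Ctnnb1 (0.092) and Sox17 (0.074), Dvl1 for Axin2 (0.065) and Itm2a for Apcdd1 (0.092). No member had the endothelial list as its nearest marker profile. The nearest was the arterial list for Adgra2 and Apcdd1, mural cells for Ndp, Ctnnb1 and Axin2, astrocytes for Tspan12 and Sox17, the thalamus list for Reck and the choroid plexus list for Fzd4. These distances describe 5 libraries and are not a test.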

How the data were processed

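RNA from 5 right hemispheres (3 vehicle, 2 UMBO) was analysed. The authors mapped the reads to GRCm38 with STAR 2.7.2a and deposited raw read counts per Ensembl gene, 1 table per library, without normalization. The annotation release and the strand setting of the counting are not given in the sources used here. Symbols, positions and exonic lengths came from GENCODE M21 on the same build, which matched 55480 of the 55573 genes and all 9 members. Unmatched genes held no more than 0.0017% of any library. No 2 libraries agreed within sampling noise (chi-square per gene of 52.2 or more, where noise alone gives about 1).

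TMM scaling and the filterByExpr filter on low counts left 23592 genes. Groups were compared by edgeR's quasi-likelihood test (version 4.0.16, R 4.3.3), and p-values were adjusted over all of them by Benjamini-Hochberg, with 0.05 as the threshold. Standard errors are the log2 fold change over the root of the F statistic, and 95% intervals use the moderated degrees of freedom. Log2 CPM used a prior count of 2. For values relative to the endothelial markers, a 2-sided exact permutation test was run on the absolute difference of means, over the 10 groupings of the libraries. The fits were tested on simulated data. The edgeR p-values set a group difference against the spread between these few libraries, and the permutation p-values rank it among the groupings.

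The members and lists were chosen with earlier results of these data known. Named were all members, the 3 genes with the smallest p of each pathway or barrier list, Wnt7a, Wnt7b, Lrp5, Lrp6, Lef1, Pecam1 and Cdh5, and the nearest list gene of each member; other genes were named after their values were seen. The alternatives were DESeq2 size factors, library size only, no filter, at least 1 CPM in 2 libraries, DESeq2 1.42.0, a replicate block and each library left out. They were added for the named genes that are not members after the data had been seen.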

Additional observations from a re-analysis of the deposited data

How the results depend on the processing

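No member passed the adjusted threshold under any alternative run. The log2 fold changes of Reck, Axin2 and Apcdd1 kept their sign throughout. That of Ctnnb1 turned to 0.0622 with library size only, a scaling under which the median of all genes was 0.13 and not 0.01, to 0.01 without vehicle replicate 3 and to 0.25 without UMBO replicate 2, and that of Tspan12 to -0.01 without vehicle replicate 1. The fits without UMBO replicate 1 and without UMBO replicate 2 gave -0.483 and 0.0538 for Ndp, -0.8182 and 0.11 for Fzd4, -0.3056 and 0.3112 for Tspan12, -0.0022 and 0.2404 for Adgra2, -0.329 and 0.4021 for Sox17, -0.5349 and 0.11 for Lef1, and -0.725 and 0.329 for Apcdd1 relative to the endothelial markers. The cause of these reversals was not tested. Over the fits that each lacked a single library, the members' median ranged from -0.42 to 0.24, members at an unadjusted p under 0.05 from 0 to 2, other pathway genes from 2 to 25, and the median relative to the endothelial markers from -1.17 to -0.23. All genes at an unadjusted p under 0.05 ranged from 296 to 10165 and those past the adjusted threshold from 0 to 4543, the highest without UMBO replicate 1. Over 40435 genes without the filter, the DESeq2 Wald test gave 40 genes past the adjusted threshold and 2738 at an unadjusted p under 0.05. Without the filter, edgeR gave 4100 at that p.

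With the replicate block, 2337 genes passed the adjusted threshold and 6134 had an unadjusted p under 0.05, among them 21 other pathway genes (5 past the adjusted threshold) but no member. Of the 27 named genes that are not members, 9 passed the adjusted threshold with the block (Ccnd1, Cdh5, Cldn5, Frzb, Fzd3, Myc, Pecam1, Slc7a5 and Wnt9a), 10 without UMBO replicate 1 (the same genes without Cdh5 and with Apc2 and Ryk) and 0 under every other alternative run. Nothing in the labels says that a shared number marks a litter or day, and only 2 numbers are shared. Whether the numbers pair the mice is therefore not known, and the main fit took them as unpaired. The deviations of same-numbered libraries correlated at 0.453 and 0.76, and those of UMBO replicate 1 and vehicle replicate 3, with unlike numbers, at 0.521. The deviations of a pair of UMBO libraries are equal and opposite, so these values are not independent.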
